A study of Mus musculus with 6 samples.

Results

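Selp, Vwf and Pecam1 encode 3 proteins through which the vessel wall holds leukocytes and platelets, and their transcripts were followed through 7 rows of a count table with 53509 rows. The rows were chosen by their position on the mouse GRCm38 assembly. The rows named Blzf1 and Ccdc181 lie on exons of Selp, the row named Vwf lies on exons of Vwf at a place shifted along that gene, and the rows named Cep95, Ddx5, Milr1 and Polg2 lie on exons of Pecam1. Counts were summed over the rows of a gene. The genes were chosen because their counts were lower in one group of libraries in an earlier look at the same data, so their levels in the groups are a description, with no test.

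The libraries were made from total RNA of C57BL/6 mice with a TruSeq RNA kit, 3 labelled wild type (control) and 3 labelled with myocardial ischemia-reperfusion injury (MIRI, a block of blood flow to heart muscle that is then released). The series' text gives an age of 21 days for the mice of both groups, and the design asks how the injury changes gene expression. The labels name retina, intervertebral disc and heart muscle in different fields, the genotype field of the MIRI libraries holds the injury, and the names of their files call them mutant, so neither a tissue nor the absence of a mutation is assumed here. No source used here gives sex, batch, time after injury, or says that each library came from its own animal, so that the spread between libraries may be technical.

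P-selectin, the product of Selp, is a lectin that is stored in the Weibel-Palade bodies of endothelial cells and the alpha granules of platelets, moves to the surface within minutes of stimulation and lets leukocytes roll along the wall. Von Willebrand factor, the product of Vwf, is the multimeric protein around which Weibel-Palade bodies form. It tethers platelets to injured wall and carries clotting factor VIII. PECAM-1 (CD31), the product of Pecam1, is an immunoglobulin-type protein at the contacts between endothelial cells, also found on platelets and leukocytes, where it takes part in leukocyte passage and carries inhibitory motifs in its cytoplasmic tail. After ischemia and reperfusion these proteins are studied for their part in leukocyte capture and microvascular clotting.

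The libraries held 6859481 to 9250952 counts, so that 1 count was worth 0.108 to 0.146 CPM (counts scaled to the library total). Summed CPM of cell-type genes named by position were checked against the labelled tissues. The 16 cardiomyocyte genes listed, of which 4 had a row, summed to 0.685 to 1.49 CPM in controls and 0.542 to 1.35 in MIRI. The 17 retina genes, 7 with a row, summed to 15.4 to 26.1 and 23.6 to 28.6 CPM, and the 14 disc and cartilage genes, 4 with a row, to 6.44 to 6.91 and 6.09 to 9.96 CPM. The 16 fibroblast genes, 10 with a row, summed to 59247 to 77140 and 60603 to 82194 CPM. Of cardiomyocyte markers, Myh6 had 0 counts in every library and Ttn 0.506 and 0.419 CPM. Of retina markers, Opn1sw, a cone opsin, was at 12.5 ± 5.50 CPM in controls and 16.0 ± 2.31 in MIRI, and Gnat2, a cone transducin, at 3.80 ± 0.45 and 5.49 ± 0.08 CPM. The other retina genes with a row were lower than these. Rlbp1 was at 1.51 and 1.83 CPM, Pde6b at 1.32 and 2.20, and Sag at 0.479 and 0.959. Crx and Pde6a had 0 to 3 counts per library. Acan, a cartilage proteoglycan, was at 0.927 CPM in controls, from 6, 12 and 3 counts, and had 0 counts in MIRI. Of the same list, Col11a2 was at 4.37 ± 1.67 CPM in controls and 6.37 ± 1.54 in MIRI. Chad was at 1.26 ± 0.72 and 1.61 ± 0.36 CPM, and Krt19 had 0 to 2 counts per library, all 3 with overlapping groups. The lists cover different lengths of exon, so their sums do not give shares of cells. The MIRI libraries also differed from controls in the summed level of 4 Y-linked genes. It was 5.01, 1.51 and 6.59 CPM in controls 1 to 3, and 310, 26.2 and 63.9 CPM in MIRI 1 to 3. This difference runs with the groups, its part in the results was not tested, and it cannot be told apart from the label.

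The counted bases decide what the values measure, so they are shown first. The mouse Selp gene lies at chr1:164115264-164150026 on the plus strand of GRCm38, and its principal transcript (Selp-205, GENCODE M21) has 16 exons and encodes 768 residues. The row Blzf1 covers exons 4, 6 and 8 whole. Exon 4 (108 bp, residues 161 to 197) encodes the epidermal growth factor-like module next to the lectin domain. Exons 6 and 8 (186 bp each, residues 259 to 321 and 383 to 445) encode short consensus repeats, which make up the stalk of the protein. The last interval of the row Ccdc181 covers exon 1 (126 bp, of which 123 are 5′ untranslated) and runs on into 188 bases before the gene's start. Together the rows cover 606 bp, or 17.6%, of the Selp transcript. Capitals mark bases under the row in the exons shown here, read 5′ to 3′ from the GENCODE M21 transcripts.
Selp exon 4, chr1:164127197-164127304, plus strand: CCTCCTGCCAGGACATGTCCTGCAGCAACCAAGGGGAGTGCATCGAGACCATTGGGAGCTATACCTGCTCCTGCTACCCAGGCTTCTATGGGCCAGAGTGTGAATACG
Selp exon 6, chr1:164130079-164130264, plus strand: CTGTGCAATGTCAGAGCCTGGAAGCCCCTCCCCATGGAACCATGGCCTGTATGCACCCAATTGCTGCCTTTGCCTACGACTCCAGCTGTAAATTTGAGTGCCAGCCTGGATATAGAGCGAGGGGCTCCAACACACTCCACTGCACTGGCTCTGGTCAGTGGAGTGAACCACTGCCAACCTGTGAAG

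Because an interval counted for Selp overlaps its promoter, the 250 bases before the start are given too (RefSeq promoter table, GRCm38.p6, which held Selp but no entry for Vwf or Pecam1). Capitals mark GGAA, the core of ETS-type sites, and GATA, on either strand.
Selp promoter, chr1:164115014-164115263, plus strand: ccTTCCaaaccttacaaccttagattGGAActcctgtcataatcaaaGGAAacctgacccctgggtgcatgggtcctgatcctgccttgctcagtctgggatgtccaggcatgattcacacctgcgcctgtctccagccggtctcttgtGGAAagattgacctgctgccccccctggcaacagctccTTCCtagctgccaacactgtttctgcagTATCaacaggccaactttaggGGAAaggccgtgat
GGAA occurred 6 times (4 on the plus strand) and GATA 1 time, on the minus strand 35 bases before the start. CACCC occurred 1 time, on the minus strand 188 bases before the start, and TATAAA was not present on either strand. No GGAA match overlaps the GATA match. Of 32851 mouse promoters of the same window, 93.4% held GGAA, 53.6% GATA, 52.0% CACCC and 12.4% TATAAA. These matches are letters in a window and describe no binding.

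Vwf lies at chr6:125546774-125686679 on the plus strand, and its principal transcript (Vwf-203) has 52 exons and encodes 2813 residues. The row Vwf has the span of the gene but starts 23037 bp before it, so its intervals meet 11 of the 52 exons, over 936 bp or 10.6% of the transcript. Exons 3, 24, 25, 26 and 40 are covered whole, and 105 of the 1379 bp of exon 28, the long exon that encodes the platelet-binding A1 domain and the A2 domain, are covered at its beginning. A further 1050 bp lie on models with a retained intron and not on the principal transcript.
Vwf exon 3, chr6:125555350-125555514, plus strand: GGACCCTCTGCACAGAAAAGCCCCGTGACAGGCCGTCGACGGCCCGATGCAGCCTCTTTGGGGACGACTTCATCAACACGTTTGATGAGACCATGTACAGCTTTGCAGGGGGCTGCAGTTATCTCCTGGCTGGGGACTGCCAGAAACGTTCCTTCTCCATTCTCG
Vwf exon 26, chr6:125637967-125638125, plus strand: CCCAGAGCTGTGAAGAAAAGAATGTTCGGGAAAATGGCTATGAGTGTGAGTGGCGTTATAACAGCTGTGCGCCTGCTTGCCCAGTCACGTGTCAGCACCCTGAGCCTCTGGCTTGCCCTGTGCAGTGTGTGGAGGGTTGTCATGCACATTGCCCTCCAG
These exons encode residues 19 to 74, at the start of the precursor, and 1127 to 1180, in the mature protein. Exon 40, the last one covered whole, encodes residues 2301 to 2326.

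Pecam1 lies at chr11:106654217-106750628 on the minus strand, with 15 exons and 716 residues in its principal transcript (Pecam1-202). The row Cep95 covers 194 of 303 bp of exon 4, 129 of 276 bp of exon 5 and 34 of 249 bp of exon 6, which encode extracellular immunoglobulin-like domains. The row Ddx5 covers exons 13 and 14 whole (63 and 57 bp), which encode residues 671 to 711 of the cytoplasmic tail. The row Milr1 covers 93 bp of the 3′ untranslated part of exon 15. The row Polg2 meets no exon of the principal transcript, and its 1457 bp of Pecam1 exon lie on a model with a retained intron (Pecam1-208). Exons of the protein-coding models Pecam1-201, Pecam1-204 and Pecam1-207 also meet this row, so its counts are no measure of a retained intron. The rows Cep95, Ddx5 and Milr1 thus meet the extracellular, tail and untranslated parts of the message separately.
Pecam1 exon 5, chr11:106695754-106696029, minus strand: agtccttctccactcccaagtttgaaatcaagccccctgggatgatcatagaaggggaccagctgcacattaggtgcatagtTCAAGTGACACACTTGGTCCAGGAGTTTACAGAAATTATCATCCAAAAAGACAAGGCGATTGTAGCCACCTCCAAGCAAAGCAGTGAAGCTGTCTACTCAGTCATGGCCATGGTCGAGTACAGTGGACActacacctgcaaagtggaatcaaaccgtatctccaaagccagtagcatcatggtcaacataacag
Pecam1 exon 13, chr11:106679549-106679611, minus strand: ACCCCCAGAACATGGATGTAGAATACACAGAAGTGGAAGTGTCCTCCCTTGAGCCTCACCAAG
Pecam1 exon 14, chr11:106671742-106671798, minus strand: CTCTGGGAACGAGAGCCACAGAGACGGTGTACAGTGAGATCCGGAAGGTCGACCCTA

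**Figure D1:**
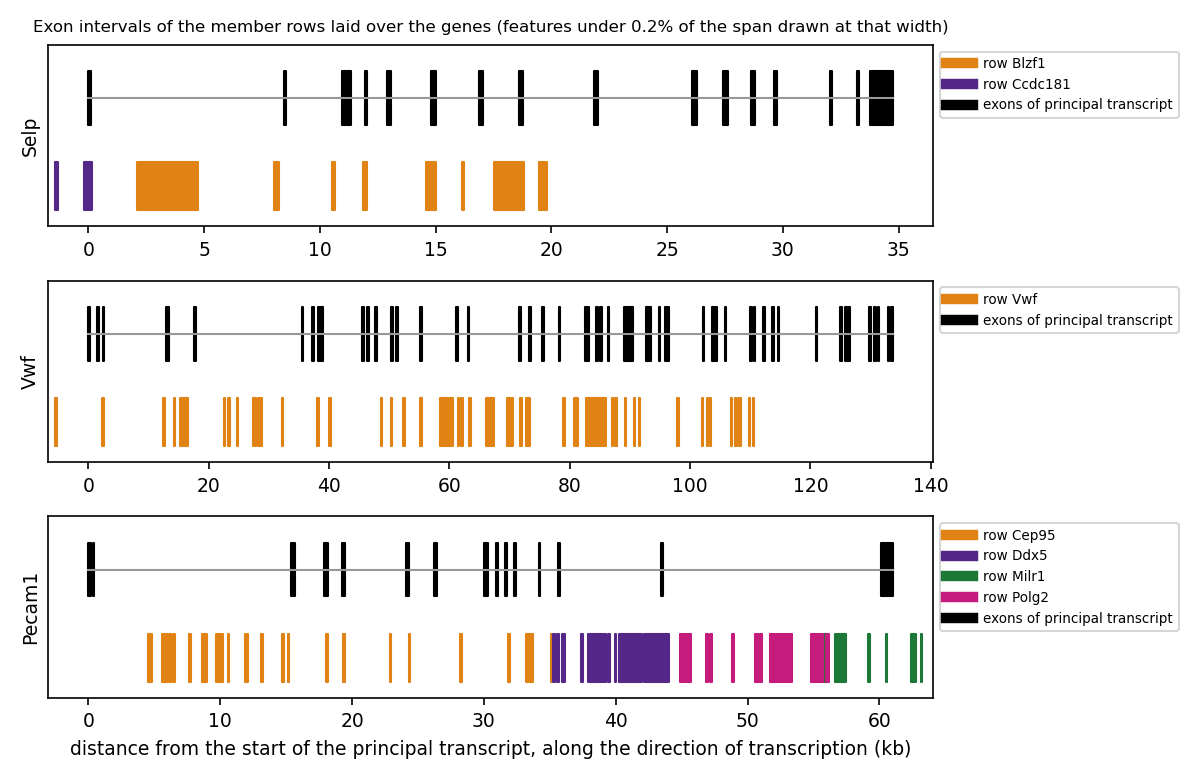
Each panel shows 1 gene, with the distance from the start of its principal transcript in kb along the direction of transcription on the x axis, exons in black and intervals of the member rows in colour below; intervals farther upstream or downstream than the axis are not drawn. The rows meet the exons of Selp in its first part, those of Vwf at scattered places, and those of Pecam1 from exon 4 to exon 15.

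Much of each row lies between exons. Gene exons made up 8.50% of the length of the row Cep95, 2.08% of Ddx5, 3.76% of Milr1, 33.4% of Polg2, 8.996% of Blzf1, 6.60% of Ccdc181 and 12.4% of Vwf. All counts of a row are included, also any from those other bases, and the counting took no account of strand. The values are therefore signal over the gene's rows rather than full transcript levels, and they compare libraries over the same bases.

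All 3 genes were lower in MIRI than in control libraries, by 4.56 times for Selp, 13.04 times for Vwf and 26.7 times for Pecam1 as ratios of group means. For each gene the highest MIRI library was below the lowest control. All 7 rows and all 3 genes passed the filter on low counts, and in all 7 rows the groups did not overlap. Over all 15777 rows tested the groups did not overlap, with MIRI lower, in 5.18%, and over all 5912 genes named by position in 5.48%. The contrast that gave these values is the one by which the genes were chosen, so nothing is read from the counts of members beside these shares.

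Selp was at 83.2, 189 and 113 CPM in controls 1 to 3 and at 32.0, 27.7 and 24.8 CPM in MIRI 1 to 3. The MIRI libraries lay close together, 1.29-fold from lowest to highest, against 2.27-fold in controls, where control 2 was highest. The group means were 128 ± 54.7 (SD, n = 3) and 28.2 ± 3.64 CPM. In summed counts, 3038 in controls and 611 in MIRI, the ratio after scaling to the totals was 4.502 with an exact 95% interval of 4.13 to 4.92, which covers counting error only. The lowest control was 2.60 times the highest MIRI library, so the gap between groups was wider than the spread within MIRI.

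Vwf was at 9.35, 48.2 and 40.1 CPM in controls 1 to 3, and at 5.11, 1.02 and 1.35 CPM in MIRI 1 to 3. Control 1 and MIRI 1 stand near each other, 1.83-fold apart, while the other controls lie far above the other MIRI libraries. Within groups the level varied 5.16-fold in controls and 5.01-fold in MIRI. The means were 32.5 ± 20.5 and 2.496 ± 2.27 CPM (SD, n = 3), from 792 and 55 summed counts, and the ratio had a counting interval of 9.91 to 17.5. MIRI 2 and 3 rest on 7 and 10 counts. Without MIRI 1 the log2 ratio of means went from -3.71 to -4.78.

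Pecam1 was at 74.8, 355 and 242 CPM in controls 1 to 3 and at 19.1, 1.75 and 4.33 CPM in MIRI 1 to 3. It had the widest spread of the 3 genes within MIRI, 10.9-fold, and 4.75-fold in controls. The means were 224 ± 141 and 8.40 ± 9.36 CPM (SD, n = 3), with 5388 counts in controls and 186 in MIRI, of which 142 came from MIRI 1. The log2 ratio of means was -4.74, and -6.20 without MIRI 1, more than the pooled SD apart. The lowest control, control 1, was 3.91 times the highest MIRI library, so the direction did not rest on MIRI 1.

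**Figure D2:**
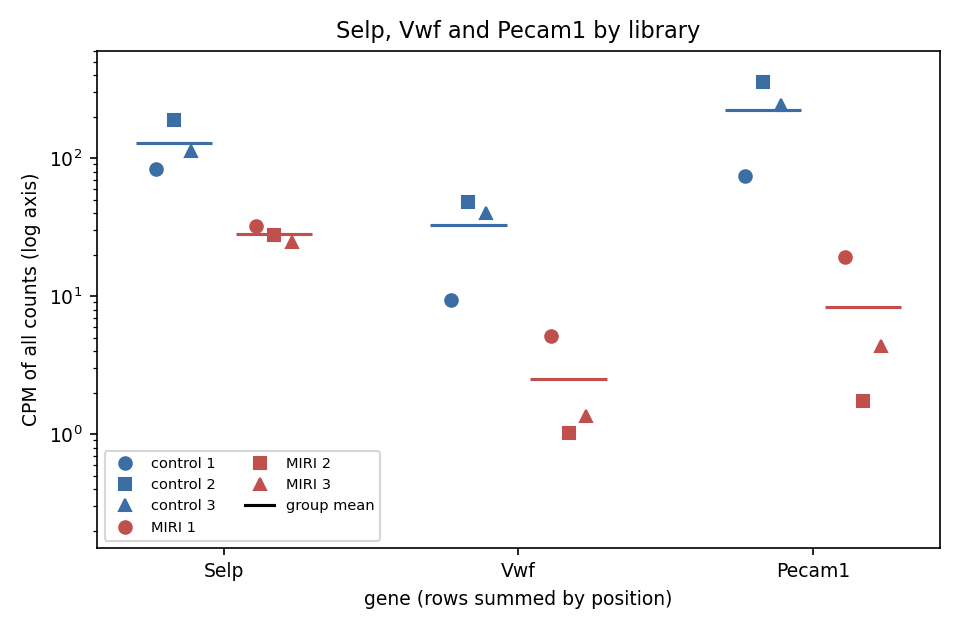
Points give the level of each gene in each library in CPM of all counts on a log axis, controls in blue and MIRI in red, with bars at the group means. Every MIRI point lies below every control point of its gene, and control 1 and MIRI 1 are the nearest control and MIRI libraries for each gene.

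The order of libraries was partly shared. Control 1 was lowest of the controls and control 2 highest for all 3 genes, and MIRI 1 was highest of its group for all 3. MIRI 2 was lowest for Vwf and Pecam1, and MIRI 3 for Selp. Across the 6 libraries the Pearson r of log2(CPM + 0.5) was 0.99 between Vwf and Pecam1, and 0.95 between Selp and each of them. These 6 points fall into 2 groups and share libraries and depth, so the coefficients describe the shared order and carry no p.

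The ratios between the genes within a library do not depend on scaling. The Pecam1 over Vwf count ratio was 8, 7.37 and 6.05 in controls 1 to 3, against 3.74, 1.71 and 3.20 in MIRI 1 to 3. The groups were apart, with fewer Pecam1 counts per Vwf count in every MIRI library. Pecam1 over Selp was 0.899, 1.88 and 2.15 in controls and 0.597, 0.0632 and 0.175 in MIRI, again without overlap. Vwf over Selp was 0.112, 0.255 and 0.356 in controls and 0.160, 0.0368 and 0.0546 in MIRI, and here the ranges overlapped because control 1 lay below MIRI 1. Selp thus had the smallest relative difference of the 3 genes, and Pecam1 the largest, among the libraries measured.

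The rows of 1 gene were compared with each other. For Selp the row Blzf1 was at 110 ± 46.7 CPM in controls and 24.1 ± 2.79 in MIRI (SD, n = 3), 4.56-fold, and the row Ccdc181, on exon 1 and the promoter side, at 18.2 ± 7.97 and 4.03 ± 1.14, 4.51-fold. The share of Selp counts in Blzf1 was 85.8% ± 0.83 in controls and 85.8% ± 2.99 in MIRI (exact permutation test of 3 against 3 samples, two-sided, p = 1.0, adjusted over the 5 shares tested 1.0). The share of the row Blzf1 thus differed between the groups by less than the spread between libraries. The difference was -0.00506 percentage points, and without MIRI 2 it was 1.34.

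For Pecam1 the control over MIRI ratios of means were 30.4 for Cep95 on the extracellular exons and 26.3 for Ddx5 on the tail exons. They were 26.5 for Milr1 on the 3′ untranslated part and 15.1 for Polg2, which meets no exon of the principal transcript. Cep95 was at 35.8, 173 and 116 CPM in controls and at 8.61, 0.437 and 1.63 CPM in MIRI. Ddx5 was at 18.3, 87.2 and 62.4 CPM, against 4.57, 0.583 and 1.22. Milr1 was at 15.8, 67.6 and 49.3 CPM, against 3.77, 0.292 and 0.948. The 3 rows on exons of the principal transcript repeat the order of the libraries, since each has control 1 as its lowest control and MIRI 2 as its lowest MIRI library. Polg2 was at 4.88, 27.5 and 14.8 CPM in controls and 2.15, 0.437 and 0.542 in MIRI, with 16, 3 and 4 counts in MIRI 1 to 3. Its ratio of summed counts, 14.7, had a counting interval of 9.66 to 23.5, which lies below that of Cep95 (23.8 to 37.7). Both intervals leave out the spread between libraries, so they do not show that the rows differ. MIRI 1 gave 16 of the 23 MIRI counts of Polg2 and 64 of the 79 of Cep95.

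The make-up of the Pecam1 signal varied little between controls and more between MIRI libraries. Cep95 held 48.1% ± 0.46 of Pecam1 counts in controls and 35.9% ± 10.1 in MIRI (exact permutation test, two-sided, p = 0.1, the smallest that 3 against 3 samples can give, and 0.25 adjusted over the 5 shares tested). The MIRI shares were 45.1%, 25.0% and 37.5%, and the share in MIRI 2 rests on 12 counts, with an exact 95% interval of 5.49% to 57.2%. Without MIRI 2 the difference of -12.2 percentage points became -6.81. Polg2 held 6.52%, 7.75% and 6.11% in controls and 11.3%, 25.0% and 12.5% in MIRI (exact permutation test, two-sided, p = 0.1, adjusted 0.25). For Cep95 every MIRI share was below, and for Polg2 above, every control share. Ddx5 held 24.9% and 28.5% on average (exact permutation p = 0.4, adjusted 0.667) and Milr1 20.2% and 19.4% (exact permutation p = 0.8, adjusted 1.0), with overlapping groups. A test of 3 against 3 samples cannot reach the threshold at any depth, so these shares are given as values.

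**Figure D3:**
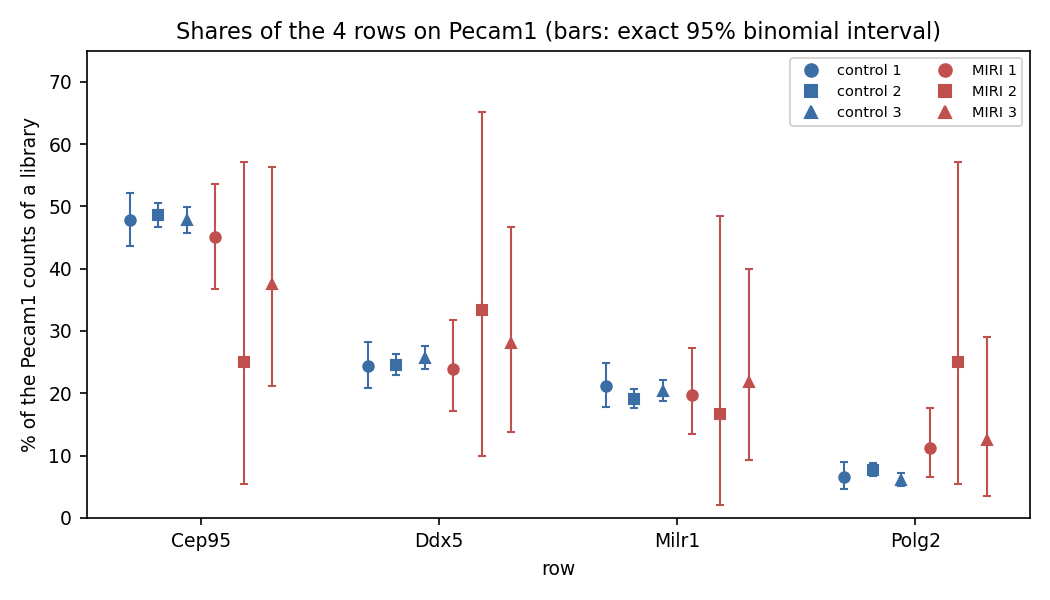
For each of the 4 rows on Pecam1, points give the percentage of the gene's counts in each library, controls in blue and MIRI in red, with exact 95% binomial intervals that cover counting error only. Control shares lie close together, and the intervals of MIRI 2 and 3, from 12 and 32 counts, are wide and take in the control shares of all 4 rows; the MIRI shares of Cep95 lie below those of controls and the MIRI shares of Polg2 above.

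Per 100 bp of principal exon covered, controls held 23.0 CPM in Blzf1 and 14.4 in Ccdc181 for Selp, 3.48 in the row Vwf, and 30.3, 46.6 and 47.6 in Cep95, Ddx5 and Milr1 for Pecam1. On this length-scaled level Pecam1 and Selp rows were above Vwf in controls. In MIRI the same quantity was 5.03 and 3.20 for Selp, 0.267 for Vwf, and 0.997, 1.77 and 1.79 for Pecam1. By these group means the Selp rows were above the Pecam1 rows in MIRI and below all 3 of them in controls. The order depends on the length used: per kb of whole row, Blzf1 held 20.6 CPM in controls, below Cep95 at 25.8 but above Milr1 at 17.9 and Ddx5 at 9.69.

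A row outside the rule also lies on Vwf. The row Ano2 covers exon 43 whole (150 bp, residues 2430 to 2479) and had 7, 33 and 37 counts in controls and 3, 0 and 2 in MIRI. Its groups did not overlap either, and with its counts added to the row Vwf the log2 ratio of means was -3.71, as without them. The row Smurf2 meets 85 bp of an exon of Pecam1-201 and 154 bp of Cep95, too little of either to be assigned, and was at 12.2 ± 2.97 and 9.71 ± 2.70 CPM with overlapping groups.

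The rows that carry the names Selp and Pecam1 serve as contrast. The row named Selp lies 172431 bp before the gene, on exons of Scyl3 (586 bp) and BC055324 (624 bp), and was at 28.9 ± 2.16 CPM in controls and 35.3 ± 8.73 in MIRI (SD, n = 3; log2 fold change 0.29 ± 0.17 SE, edgeR adjusted p = 0.9996). The row named Pecam1 meets no GRCm38 exon and was at 7.75 ± 3.11 and 7.91 ± 1.32 CPM (0.03 ± 0.30, edgeR adjusted p = 0.9996). Neither of the rows so named was lower in MIRI. Per kb of row length, the row named Pecam1 held 1.24 ± 0.50 CPM in controls and 1.27 ± 0.21 in MIRI, and the 4 rows on Pecam1 held 3.61 to 25.8 in controls and 0.240 to 0.847 in MIRI. In MIRI their mean signal per kb was thus below that of a row with no exon.

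**Figure D4:**
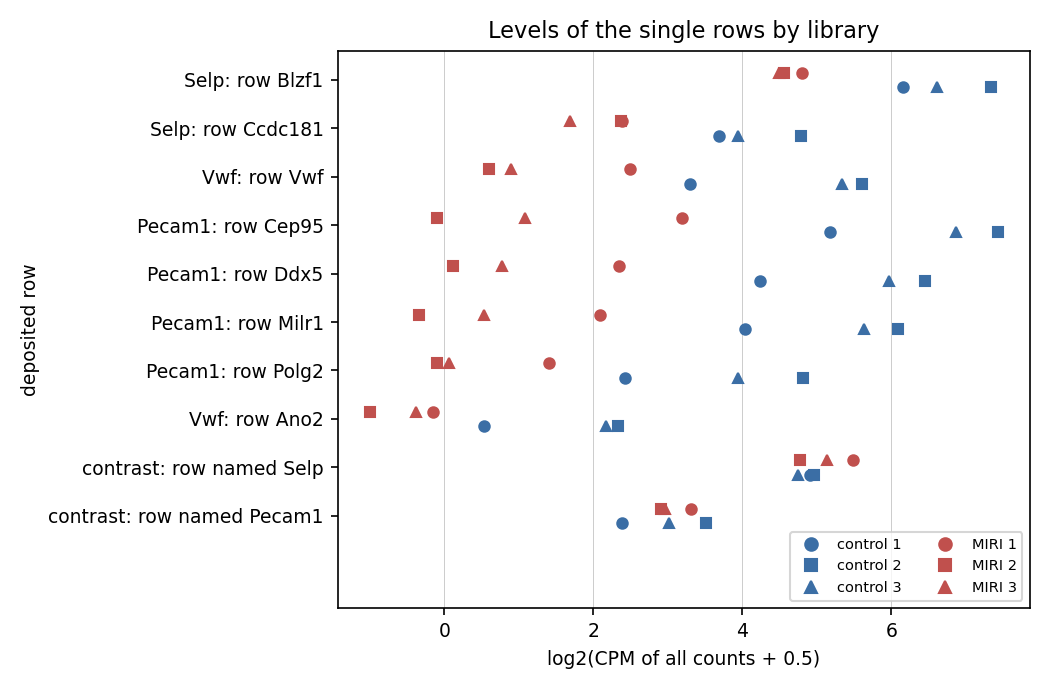
Each line is 1 deposited row, with log2(CPM of all counts + 0.5) on the x axis, controls in blue and MIRI in red, 1 marker shape per replicate number. The 7 member rows and Ano2 separate the groups, and the contrast rows named Selp and Pecam1 do not.

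Genes beside the members on the chromosome were read as a local comparison, and none of those tested passed. Of 22 protein-coding genes within 200 kb, 8 had a row by position and 7 were tested. With edgeR 0 were called, 0 had an unadjusted p under 0.05, and DESeq2 called none of them. Cd9, a tetraspanin 51983 bp from Vwf, was at 268 ± 14.1 and 219 ± 52.5 CPM (-0.29 ± 0.15). Tnfrsf1a, a receptor for tumour necrosis factor, was at 194 ± 1.03 and 191 ± 6.54 CPM (-0.02 ± 0.09), and Ern1, a sensor of unfolded proteins near Pecam1, at 97.5 ± 17.6 and 79.2 ± 7.13 (-0.29 ± 0.14). Blzf1, Kifap3, Nme7 and Slc19a2 near Selp had log2 fold changes from -0.07 to 0.17. The gene Blzf1 itself, by position, was at 11.1 ± 2.90 and 10.7 ± 0.80 CPM, where the row of that name, on Selp, differed 4.56-fold. Sele, which encodes E-selectin, had no row by position, nor had the genes Ccdc181, Cep95, Ddx5, Milr1 and Polg2.

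Lists of genes for the steps that P-selectin, von Willebrand factor and PECAM-1 take part in were read by position. In the whole fit 0 of 5912 genes were called by edgeR (0%), 97 (1.64%) had an unadjusted p under 0.05 in the higher and 175 (2.96%) in the lower direction, and the median log2 fold change was 0.01. DESeq2 called 9 higher and 46 lower (0.499% of 9216). The count of edgeR calls in each list below is 0, as in the whole fit, and counts at an unadjusted p are given beside these shares. Fold changes in parentheses are log2, MIRI over control, ± SE from edgeR.

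The selectin family and its ligands showed no member at p under 0.05. Of 21 genes 8 had a row and 6 were tested, with a median of -0.00, and DESeq2 called none. B4galt1, a galactosyltransferase that builds the sugar chains bound by selectins and the most abundant of them, was at 1009 ± 113 and 910 ± 46.5 CPM (-0.14 ± 0.13). Podxl2, endoglycan, which can bind selectins, was at 3.25 ± 1.28 and 5.37 ± 1.07 CPM (0.73 ± 0.35), and the sialyltransferases St3gal6 and St3gal4 had -0.38 ± 0.43 and -0.10 ± 0.14. Selplg, the main ligand of P-selectin, is on the list, and no value is given for it here.

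Among 33 junction and immunoglobulin-type adhesion genes, the company of Pecam1, 11 had a row and 8 were tested, with 4 lower and 0 higher at an unadjusted p under 0.05, a median of -0.22 and none called by DESeq2. F11r (JAM-A), a tight-junction protein, was at 26.4, 114 and 57.5 CPM in controls, against 21.8, 15.5 and 9.35 CPM in MIRI (-2.08 ± 0.51, edgeR adjusted p = 0.402), with groups apart. Tjp1, a scaffold protein of tight junctions, had -0.34 ± 0.11, and Ptprb, the phosphatase VE-PTP of endothelial junctions, -0.96 ± 0.35. Control 2 was highest and control 1 lowest of the controls for F11r and Ptprb, as for the members. MIRI 1 was the highest MIRI library for F11r, as for the members. For Ptprb it was the lowest, at 34.3 CPM against 54.8 and 48.5 in MIRI 2 and 3. Vcam1, a receptor for leukocyte integrins and the most abundant of the list, was at 270 ± 31.3 and 282 ± 46.0 CPM (0.06 ± 0.14), without the difference seen for Pecam1.

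The list of von Willebrand factor receptors, platelet adhesion and vessel-wall haemostasis had 31 genes, 11 with a row and 9 tested, with 2 lower and 1 higher at an unadjusted p under 0.05 and a median of -0.07. Entpd1 (CD39), which breaks down the platelet agonist ADP on the endothelial surface, was at 9.48, 123 and 33.7 CPM in controls and 7.13, 1.17 and 1.63 in MIRI (-4.04 ± 0.99, edgeR adjusted p = 0.402). Procr, the endothelial receptor of protein C, was at 39.7, 147 and 66.4 against 40.0, 22.0 and 21.8 CPM (-1.59 ± 0.45, edgeR adjusted p = 0.606), and it was the list's only gene called by DESeq2 (adjusted p = 0.0141). In both genes control 1 was the lowest control and MIRI 1 the highest MIRI library, the pattern of Vwf. Thbs2, a matrix protein, was at 22.0 ± 6.81 and 35.2 ± 7.60 CPM (0.68 ± 0.27), and Itga2, a collagen receptor chain, had -0.38 ± 0.26.

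Weibel-Palade bodies hold both P-selectin and von Willebrand factor. Of 32 genes for their cargo and release, 14 had a row and 12 were tested, with 2 lower and 0 higher at an unadjusted p under 0.05 and a median of -0.05. The cargo gene Edn1, for the vasoconstrictor endothelin-1, was at 5.82, 16.0 and 16.1 CPM in controls and 5.92, 2.33 and 2.17 in MIRI (-1.87 ± 0.49, edgeR adjusted p = 0.49, DESeq2 adjusted p = 0.019), and control 1 and MIRI 1 were alike. Angpt2, a stored ligand of the receptor Tek, was at 93.1 ± 6.85 and 54.8 ± 20.7 CPM (-0.77 ± 0.24, edgeR adjusted p = 0.762), with groups apart. Genes of the release machinery, which many cells use, showed small values, among them Unc13d (-0.11 ± 0.12), Rapgef3 (-0.09 ± 0.10) and the most abundant, the motor Myo5a (0.10 ± 0.15).

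On the leukocyte side, 21 integrin and counter-receptor genes had 13 with a row and 10 tested, 0 at an unadjusted p under 0.05, none called by DESeq2 and a median of -0.02. Itga4, a chain of the VCAM-1 receptor, had -0.25 ± 0.33, Itga1 -0.29 ± 0.39, Itga9 0.19 ± 0.27 and Tln2 0.15 ± 0.20. Tln1, the integrin-activating talin and the most abundant, was at 3074 ± 315 and 2915 ± 255 CPM (-0.07 ± 0.14). The 31 transcription factors and inducers that act on adhesion genes had 11 with a row and 10 tested, 1 lower and 0 higher at an unadjusted p under 0.05, none called by DESeq2 and a median of -0.15. Mecom was the lower one (-0.42 ± 0.17, edgeR adjusted p = 0.999), followed by the ETS factors Elk3 (-0.30 ± 0.14) and Ets2 (-0.38 ± 0.25), and Klf4, the most abundant, had -0.21 ± 0.18.

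**Figure D5:**
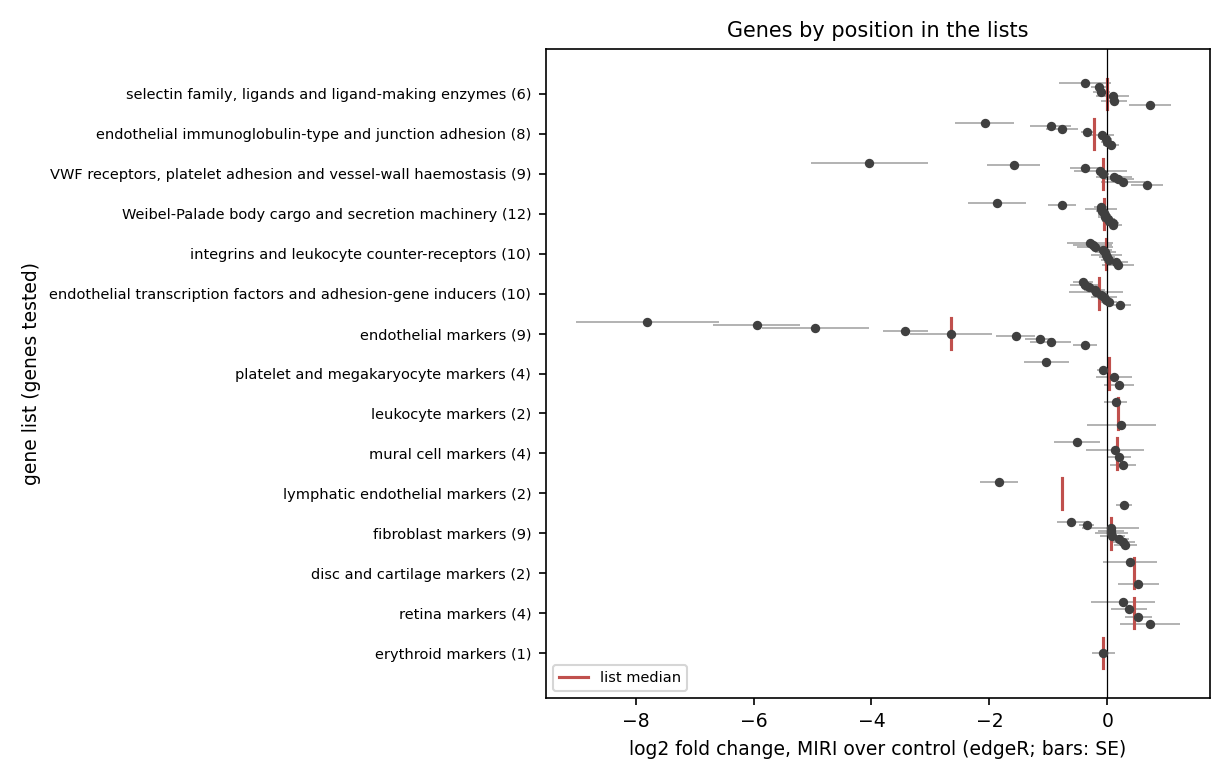
Points give the log2 fold change of each tested gene named by position, MIRI over control, with SE bars from edgeR, and red lines the median of each list, with the number of tested genes in parentheses. Most lists sit near 0, while the endothelial markers have a median of -2.66. Of that list, Emcn, Robo4, Arhgef15 and Tie1 passed the low-count filter through the controls. The leftmost point is Emcn, with 0 counts in MIRI, whose fitted value depends on the prior count.

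Endothelial marker genes other than the members were lower in MIRI at an unadjusted p in most of those tested, and edgeR called 0. Of 26 endothelial markers other than the members, 10 had a row and 9 were tested. Of these, 8 were lower and 0 higher at an unadjusted p under 0.05. In 7 the groups did not overlap with MIRI lower, and DESeq2 called 5, all lower. Over all genes by position, the shares lower in MIRI were 2.96% at that p, 5.48% without overlap and 0.499% called by DESeq2. In MIRI 2 and 3, Emcn, Robo4, Arhgef15 and Tie1 had 0 to 8 counts, so they passed the low-count filter through the controls. Genes that pass in this way are high in controls by selection, so nothing is read from the list's counts beside these shares. The list was chosen with earlier results of these data known. Adgrl4 had -3.43 ± 0.38 and Robo4 -5.95 ± 0.74 (edgeR adjusted p = 0.0821 for both), Tie1 had -4.95 ± 0.90 (0.217), and Emcn had 0 counts in each MIRI library (an upper limit of 0.437 CPM in the shallowest, from 3 counts). Eng, the most abundant, had -0.38 ± 0.20, and its groups overlapped, as did those of Ptprb. The summed level of the list was 336 to 630 CPM in controls and 201 to 292 in MIRI. In such bulk samples, fewer endothelial cells and less RNA of these genes per cell cannot be told apart, and the part of this list in the members' levels was not tested.

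P-selectin and PECAM-1 are also found in platelets, and PECAM-1 on leukocytes, so markers of these cells are given too. The 20 platelet and megakaryocyte genes, 7 with a row, summed to 62.8 to 68.6 CPM in controls and 58.3 to 72.9 in MIRI. Gp1ba, the platelet receptor for von Willebrand factor, held most of that sum at 51.5 ± 1.995 and 48.9 ± 3.97 CPM, Itga2b was at 2.69 and 2.91 CPM, and Gp6 had 0 counts in every library. Clec1b, a platelet receptor, had control counts of 4, 4 and 6, while all MIRI libraries were at 0. Nfe2, a megakaryocyte transcription factor, was at 1.71 ± 0.33 and 0.824 ± 0.21 CPM (-1.03 ± 0.38), the 1 gene of the 4 tested that was lower at an unadjusted p under 0.05. In both the groups did not overlap, and none of the 4 was called by edgeR or DESeq2. Nfe2 had 7, 4 and 7 counts in MIRI 1 to 3, so it passed the low-count filter through the controls. The 22 leukocyte genes, 6 with a row, summed to 86.5 to 135 and 93.8 to 146 CPM. Csf1r held most of that sum, at 95.6 ± 16.0 and 105 ± 18.2 CPM, and Ptprc was at 1.18 and 1.29 CPM. Spi1 had 6, 1 and 2 counts in controls and 1, 0 and 0 in MIRI, lower in MIRI without overlap in CPM. The 16 mural-cell genes, 6 with a row, summed to 117 to 177 and 132 to 182 CPM. The 10 erythroid genes, 6 with a row, summed to 6.16 to 6.81 and 5.92 to 6.64 CPM. The sums of these 4 lists overlapped between the groups, unlike the members. The 10 lymphatic endothelial genes, 4 with a row, summed to 167. to 187. and 160. to 193. CPM, and Stab1 among them was at 47.7 ± 17.9 and 13.4 ± 4.77 CPM (-1.83 ± 0.32, edgeR adjusted p = 0.187, DESeq2 adjusted p = 1.07e-05). Pdpn, which holds most of that sum, was higher in MIRI without overlap, at 132 ± 8.42 and 160.0 ± 20.5 CPM (0.29 ± 0.14, edgeR adjusted p = 0.999).

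The genes whose pattern over the 6 libraries was most like each member were taken from 5596 genes by position with a mean of at least 2 CPM, by Pearson r of log2(CPM + 0.5). For Selp they were Plxna4, Fam167b, Robo4, Dennd5b and Scarf1 (r of 0.987 to 0.982), for Vwf Fgd5, Cftr, Gimap1, Stab1 and Adgrf5 (0.995 to 0.992), and for Pecam1 Tie1, Adgrf5, Gimap1, Inpp5d and Fgd5 (0.998 to 0.983). Vwf and Pecam1 shared Fgd5, Gimap1 and Adgrf5 among their 5, and Selp shared none with them. Tie1, the gene most like Pecam1, was at 23.3, 119 and 74.9 CPM in controls, against 5.79, 0 and 1.08 CPM in MIRI. Plxna4, the most like Selp, was at 5.15, 12.6 and 10.4 CPM against 2.02, 1.75 and 1.22. With 6 libraries in 2 groups, any gene with the same group difference has a high r, and these values are a description.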

How the data were processed

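RNA sequencing of 6 mouse libraries was read from whole-number counts of read pairs that the authors deposited per row name, in sample files and in 1 table of the series, which agree in all 53509 rows. featureCounts 2.0.1 counted them over exons pooled by gene name, per the file headers, from pairs with both mates aligned and not chimeric, with no strand option. The submitters' processing notes name the builds mm8 and mm9 and the tool Bowtie 0.12.2. What aligner and build gave these alignments is not given in the sources used here. FPKM values that the authors deposited equal the counts divided by row length and by the squared library total, and served only as an alternative.

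The exon intervals in the files were laid over GENCODE M21 (GRCm38) with bedtools 2.31.1, converting no coordinate. A row was named for the gene holding at least 80% of the exon bases it overlaps and at least 50 bp, which named 14919 rows for 11900 genes with 61.3% of counts. CPM are relative to all counts of a library (6859481 to 9250952). edgeR 4.0.16 in R 4.3.3 (TMM, default filter, quasi-likelihood test, two-sided, Benjamini-Hochberg, threshold 0.05) was fitted over all genes and, separately, over all rows, and tested on simulated data. DESeq2 1.42.0 was an alternative, besides other scaling, no filter, other naming rules and leaving out each library. Intervals are exact at 95% and cover counting error only.

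The member genes and the lists were chosen with earlier results of these data known. Besides the members, the text names the rows that carry the names Selp and Pecam1, genes within 200 kb, the 4 genes of each adhesion list with the smallest p and its most abundant gene, and the 5 genes most like each member, except that some items under this rule are not reported here. Ano2, Smurf2, Selplg and the markers given as examples were named after their values were seen. Deviations from the group means had r of -0.31 to 0.21 over genes between same-numbered libraries of the groups. Between libraries of unlike number r ran from -0.36 to 0.44. With groups of 3 such values cannot tell whether the numbers pair samples, and the main fit used no pairing.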

Additional observations from a re-analysis of the deposited data

How the results depend on the processing

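The log2 ratio of group means stayed below 0 for Selp, Vwf and Pecam1 in each of the 34 alternatives computed for them, and moved by less than 1 SD in 33. The exception was Pecam1 without MIRI 1, at -6.20 against -4.74. Leaving out 1 library gave -2.42 to -1.80 for Selp, -4.78 to -3.31 for Vwf and -6.20 to -4.24 for Pecam1. Of the 34, 2 alternatives, Vwf with the row Ano2 and Pecam1 without Polg2, were chosen after seeing the data. The difference in the share of Blzf1 within Selp was near 0 and changed sign with the library left out (-1.62 to 1.34 percentage points, 0.456 without control 3, 0.268 without MIRI 1 and 1.34 without MIRI 2), and that of Cep95 within Pecam1 ran from -16.8 to -6.81. For genes by position, DESeq2 called 55 (9 higher, 46 lower), no filter on low counts 32 (4, 28), and leaving out 1 library 0 to 14, the 14 without control 1. For rows by deposited name the counts were 85 (6, 79), 355 (124, 231) and 0 to 31, the 31 without control 1. With the replicate block edgeR called 0 in both, and other scaling and naming rules also gave 0. The causes were not tested. The MIRI libraries 2 and 3 hold 7 and 10 counts of Vwf and 12 and 32 of Pecam1, which limits shares and ratios there.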
